A study of Mus musculus with 8 samples.

Results

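The genes described here are 9 genes of apolipoproteins and lipoprotein assembly, Apob, Apoa1, Apoa2, Apoa4, Apoc3, Apoe, Apoh, Apom and Mttp, out of 23403 genes in a table of RNA-seq counts from mouse hepatoma cells. They were chosen by their symbols, and the group was chosen from the RNA-seq contrast described below because Apob was among its largest rises, so the values of the 9 genes in that contrast are a description and carry no test. The study asked how hexavalent chromium, Cr(VI), changes chromatin and transcription in Hepa-1c1c7 (Hepa-1) cells, a mouse hepatoma line. The deposited RNA-seq counts cover 2 libraries of cells given 25 µM Cr(VI) as CrK2O4 for 90 minutes and 2 libraries of control cells, and the labels do not say how often these controls were passaged. FAIRE-seq, which recovers DNA that is not crosslinked to protein, covered 4 conditions with 1 library each: the 90-minute treatment with 25 µM Cr(VI), long-term growth over 20 passages with Cr(VI) at 0.5 µM, and a control without chromium for each. All libraries come from the same cell line, and nothing in the labels says that libraries of a group came from separate cultures, so p-values measure only the spread between these samples, which may be technical.

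Lipoproteins carry triglyceride and cholesterol through the blood as particles with a lipid core and a coat of phospholipid and apolipoproteins. In hepatocytes, apolipoprotein B is the scaffold of very low density lipoprotein and takes up lipid in the endoplasmic reticulum with the help of microsomal triglyceride transfer protein, while apolipoproteins A-I and A-II are the main proteins of high density lipoprotein. The liver makes most of the apolipoproteins of the blood, and hepatoma lines keep this programme to a varying degree.

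The total counts were 32877791 and 32319676 in treated libraries 1 and 2 and 33303645 and 37696116 in control libraries 1 and 2. The treated libraries differed from each other more than the controls did. Pearson's r of log2 CPM (read counts scaled to the size of the library) across genes, which are not independent replicates, was 0.974 for the treated pair and 0.997 for the control pair, and 1404 genes differed more than 2-fold between the treated libraries against 83 between the controls. Values without a treated library are therefore also given, though not for every gene. CPM values below are scaled by TMM factors, and a count of 3 corresponded to 0.0767 to 0.104 CPM, which is the level that a count of 0 still allows, for counting error only.

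The label of a hepatoma line was checked against 16 hepatocyte markers. Their summed level was 7890 and 9262 CPM in treated libraries 1 and 2 and 4396 and 4542 CPM in the controls, Alb had the highest mean CPM over the 4 libraries, though not in the controls alone, where Trf, Krt18 and Krt8 were above it, and Serpina1b was at 0 in every library. CPM is not corrected for gene length, here and wherever a marker or list is described by its gene with the highest mean CPM. Markers of other cell types were also present at some level. The 8 fibroblast and stellate markers summed to 1288 and 1417 CPM in the treated and 703 and 714 CPM in the control libraries, with the highest mean CPM in Dcn and none at 0 in every library. Dcn alone made up 959 and 997 CPM of the treated sums. Of the 6 of these markers tested, 2 lay above both controls in both treated libraries and 1, Pdgfra, below. Among all genes tested, 32.2% lay above and 34.1% below in this way. The 7 macrophage and leukocyte markers summed to 114 and 107 CPM in the treated and 119 and 122 CPM in the control libraries, with the highest mean CPM in Cd14 and none at 0 throughout. The 8 enterocyte markers, with the highest mean CPM in Vil1, summed to 38.2 and 36.7 CPM in the treated and 16.4 and 18.7 CPM in the control libraries, again with none at 0 throughout. The 6 endothelial markers, with the highest mean CPM in Lyve1, summed to 6.71 and 4.49 CPM in the treated and 4.40 and 5.04 CPM in the control libraries, and Cdh5 was at 0 in all 4.

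Apob encodes the structural protein of very low density lipoprotein and had the largest fitted log2 fold change of the 4 members that passed the filter on low counts. It lies on chromosome 12 from 7977629 to 8016839 on the plus strand. The 150 bases before its first annotated start are printed because Apob led the choice of the group. They come from the RefSeq promoter table (GRCm38.p6, plus strand, chr12:7977479-7977628), and capitals mark a match to the C/EBP motif TTGCNNAA on the opposite strand and, nearer the start, to the TATA box TATAAA.
Apob: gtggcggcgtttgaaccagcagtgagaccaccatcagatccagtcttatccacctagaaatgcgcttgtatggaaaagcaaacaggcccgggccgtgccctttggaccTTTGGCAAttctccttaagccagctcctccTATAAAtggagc
Apob had 18.8 CPM in treated library 1 and 11.9 CPM in treated library 2, against 0.661 CPM in control 1 and 0.665 CPM in control 2. Both treated libraries were far above both controls, which were nearly equal, and library 1 was the higher of the treated pair. The group means were 15.4 ± 4.83 CPM (SD, n = 2) and 0.663 ± 0.00243 CPM (SD, n = 2), a ratio of 23.2. The fitted log2 fold change was 4.53 (SE 0.33), with 4.17 without treated library 1 and 4.81 without treated library 2. In such bulk libraries, more RNA per cell and more cells that hold the RNA cannot be told apart.

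Mttp encodes the large subunit of microsomal triglyceride transfer protein, which loads lipid onto apolipoprotein B. It measured 5.91 and 4.87 CPM in treated libraries 1 and 2 and 2.82 and 2.86 CPM in controls 1 and 2. Both treated libraries lay above both controls, and as for Apob library 1 was the higher. The means were 5.39 ± 0.738 CPM (SD, n = 2) and 2.84 ± 0.0324 CPM (SD, n = 2), and the log2 fold change was 0.92 (SE 0.22). It was 0.79 without treated library 1 and 1.05 without treated library 2.

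Apoe encodes a ligand of the receptors that clear lipoprotein remnants. Its level was 8.86 CPM in treated library 1 and 28.1 CPM in treated library 2, against 3.19 and 3.76 CPM in controls 1 and 2. The groups did not overlap, but treated library 2 stood well above treated library 1, in the order opposite to Apob. The means were 18.5 ± 13.6 CPM (SD, n = 2) and 3.48 ± 0.401 CPM (SD, n = 2). The log2 fold change of 2.41 (SE 0.61) became 1.34 without treated library 2 and 3.02 without treated library 1, so its size rests on which treated library is used.

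Apoa2 encodes an apolipoprotein of high density lipoprotein and had more counts than Apoa1 and Apom. Its upstream stretch is shown because it holds the FOXA motif TGTTTAC, in capitals, in the 150 bases before its curated start (RefSeq promoter table, GRCm38.p6, plus strand, chr1:171224904-171225053). This stretch lies in an intron of a longer annotated transcript of Apoa2.
Apoa2: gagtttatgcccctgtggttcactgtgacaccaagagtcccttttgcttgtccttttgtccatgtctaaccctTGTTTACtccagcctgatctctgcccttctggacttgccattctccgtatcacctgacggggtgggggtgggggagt
Apoa2 had 2.63 and 4.42 CPM in treated libraries 1 and 2 and 1.04 and 1.23 CPM in controls 1 and 2. Both treated libraries were above both controls, and library 2 was the higher. The means were 3.52 ± 1.26 CPM (SD, n = 2) and 1.13 ± 0.136 CPM (SD, n = 2), and the log2 fold change was 1.63 (SE 0.36). It was 1.97 without treated library 1 and 1.21 without treated library 2. Apoa2 shares bases with Tomm40l on the opposite strand, and since the sources used here do not say whether counting used the strand, reads of the shared bases may belong to either gene.

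Apoa1, the main protein of high density lipoprotein, had 2 and 9 counts in treated libraries 1 and 2 and 0 counts in both controls. Over the groups this was at least 4.31-fold higher in treated cells, taken against a floor of 3 counts over the control group. Scaled by each treated library's CPM over the treated mean, this bound was 1.38-fold for library 1 and 7.24-fold for library 2. The 2 counts of treated library 1 were themselves under 3. Apom, a carrier of sphingosine 1-phosphate in high density lipoprotein, had 9 and 16 counts in the treated and 5 and 3 counts in the control libraries. Apoh, a phospholipid-binding plasma protein also called beta-2-glycoprotein I, had 4 and 7 counts in the treated and 2 and 3 counts in the control libraries. For these 3 genes the treated counts were above the control counts, but none of the 3 passed the filter on low counts with all 4 libraries. Apoa4 and Apoc3, which act in intestinal lipid export and in the inhibition of triglyceride clearance, had 0 counts in all 4 libraries.

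**Figure D1:**
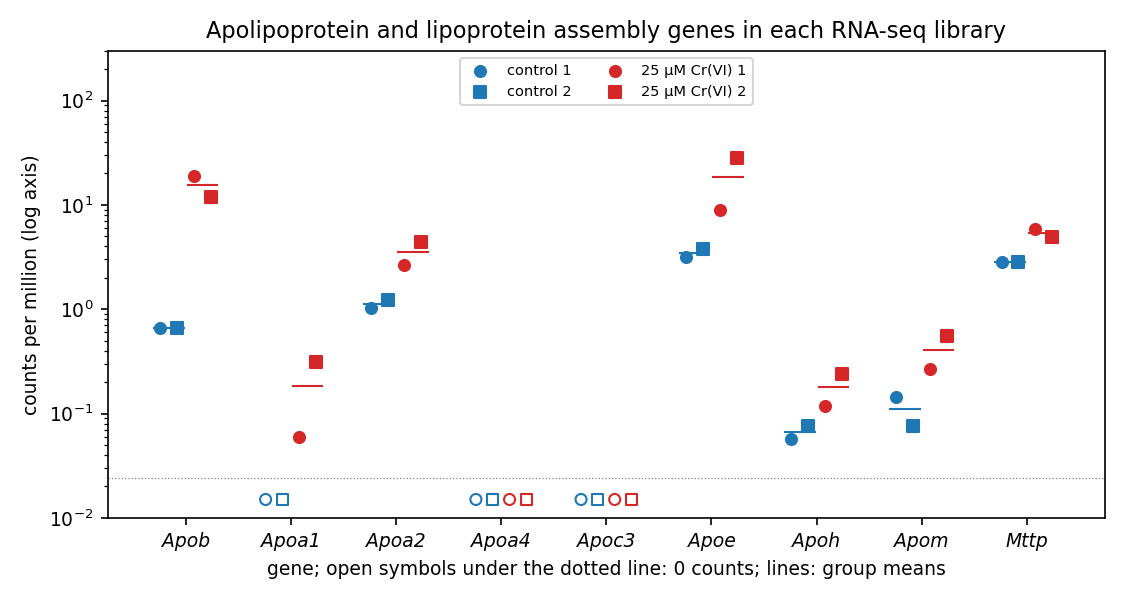
TMM-scaled CPM (log axis) of the 9 genes in the 2 control libraries (blue) and the 2 libraries of cells given 25 µM Cr(VI) (red), with group means as lines and counts of 0 as open symbols. Among genes with counts in both groups, Apob shows the widest gap between groups on this axis, Apoe the widest gap between treated libraries, and Apoa4 and Apoc3 are at 0 throughout.

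The levels of the 9 genes were compared with each other as CPM per kilobase of the union of annotated exons. In control cells the highest were Apoa2 with 1.21 ± 0.145 and Apoe with 1.04 ± 0.120 CPM per kilobase (SD, n = 2), which did not differ beyond their spread, followed by Mttp with 0.597 ± 0.00680. Apom with 0.144 ± 0.0621 came next, then Apoh with 0.0565 ± 0.0114 and Apob with 0.0475 ± 0.000174, which again did not differ beyond their spread. In treated cells the order was Apoe with 5.52 ± 4.06, Apoa2 with 3.76 ± 1.35, Mttp with 1.13 ± 0.155 and Apob with 1.10 ± 0.346 CPM per kilobase (SD, n = 2). Neither Apoe and Apoa2 nor Mttp and Apob differed beyond their spread, and Apob had moved from below Apom to the level of Mttp. Apom with 0.535 ± 0.265 and Apoa1 with 0.187 ± 0.180 came next, then Apoh with 0.151 ± 0.0734, and Apoa1 and Apoh did not differ beyond their spread. With the shortest curated mRNA as the length, an alternative chosen after seeing the data, Apoe with 2.91 ± 0.336 stood above Apoa2 with 2.24 ± 0.269 CPM per kilobase in control cells.

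Of the 9 genes, 4 (Apob, Apoa2, Apoe and Mttp) passed the filter on low counts. The threshold for a call was an adjusted p of 0.05 with the quasi-likelihood method of edgeR. Only Apob passed it, 1 of the 9 genes, where 4.63% of all 13619 genes tested were called, 1.78% as higher and 2.85% as lower in treated cells. DESeq2 called 3 of them, Apob, Apoa2 and Apoe, where it called 7.76% of all genes higher. Both treated libraries lay above both controls for 4 of the 4 genes that passed, where this held for 32.2% of the genes tested, and below both controls for 34.1%. Nothing is read from these counts, since the contrast chose the genes. The median log2 fold change over the 4 genes was 2.02, beside -0.0047 for the 13619 genes. The number of the 9 genes called by edgeR was 5 without treated library 1, where 77.6% of all genes tested were called and Apom passed the filter too, and 4 without treated library 2, where 67.2% were. It was 2 without control 1 and 2 without control 2, where 2.07% and 2.02% of all genes tested were called. Without a treated library the spread comes from the near-equal controls alone, and the lone treated library is assumed to vary as they do. Where Apom passed the filter, it did so only through treated library 2 (16 counts), with 5 and 3 counts in the controls. Its values in those fits are therefore no support for a difference.

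The genes whose pattern over the 4 libraries was most like that of Apob were sought among 10474 tested genes whose log2 CPM averaged 2 or more, by the Euclidean distance of log2 CPM centred on each gene's mean. The nearest was Agt, which encodes angiotensinogen, at a distance of 0.656, followed by Tspoap1 at 1.43, Ptprq at 1.58, Enpp2, the enzyme that makes lysophosphatidic acid, at 1.77, and AW549542 at 1.87. Agt measured 22.7 and 13.5 CPM in treated libraries 1 and 2 and 1.32 and 1.20 CPM in controls 1 and 2. Agt was picked for this likeness. Of the other 4, Tspoap1 and AW549542 had the higher level in treated library 2, unlike Apob.

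A further 11 apolipoprotein genes had counts, and 8 of them were tested. Clu, the gene of clusterin (apolipoprotein J), was the only one called, where 4.63% of all genes tested were called. It was at 1479 and 1421 CPM in treated libraries 1 and 2 and at 669 and 697 CPM in controls 1 and 2, so that the groups stood clearly apart, and it rose with a log2 fold change of 1.09 (SE 0.16; edgeR adjusted p = 0.0438). The call was lost without control 1 (log2 fold change 1.04, edgeR adjusted p = 0.574) and without control 2 (1.10, edgeR adjusted p = 0.529), and over all alternatives the edgeR and DESeq2 adjusted p ran from 5.53e-193 to 0.574. Apoc1, an inhibitor of lipoprotein clearance that lies beside Apoe, had 14 and 27 counts in the treated and 0 counts in both control libraries. This was at least 16.1-fold higher over the groups, against a floor of 3 counts over the controls. Scaled by each treated library's CPM over the treated mean, this bound was 9.88-fold for library 1 and 22.3-fold for library 2. Apoc1 was not called (edgeR adjusted p = 0.0690). It passed the filter only through the treated libraries, where it was higher, so its p-values are no support for a difference. Without the filter it was not called either (edgeR adjusted p = 0.0533). DESeq2 called it (adjusted p = 0.00288), but on the same filtered genes, so that value is no support for a difference either. Without treated library 2, Apoc1 did not pass the filter and has no value. The median log2 fold change of the 8 genes was 0.41, also with Apoc1 at its bound.

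**Figure D2:**
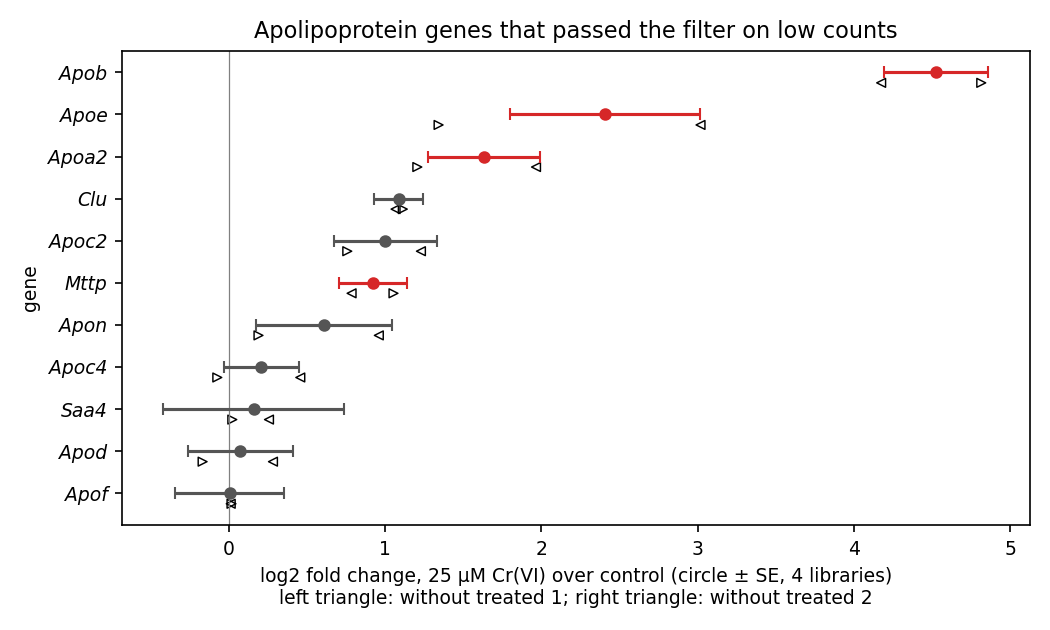
Fitted log2 fold changes (circle ± SE, 4 libraries) of the 4 members (red) and 7 further apolipoprotein genes (grey) that passed the filter on low counts and had counts in the controls, with the values without treated library 1 (left triangles) and without treated library 2 (right triangles). Apob lies at 4.53, and Apoe moves from 1.34 to 3.02 with the treated library left out.

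Lipoprotein assembly and secretion also needs chaperones, the COPII coat and enzymes of lipid esterification. Of 20 such genes, 17 were tested, and edgeR called 0 of them, where it called 4.63% of all genes tested. An unadjusted p under 0.05 was found for 3. DESeq2, which called 15.2% of all genes tested, called 1, Apobec1. Apobec1, named after its values were seen, had 7.56 and 25.3 CPM in treated libraries 1 and 2 and 6.64 and 6.83 CPM in controls 1 and 2, and its log2 fold change of 1.28 (SE 0.60) was 0.16 without treated library 2 and 1.92 without treated library 1. The median log2 fold change was 0.13. The gene with the highest mean CPM, P4hb, the protein disulfide isomerase subunit of the triglyceride transfer protein, had 934 and 1322 CPM in treated libraries 1 and 2 and 1096 and 1109 CPM in controls 1 and 2. The treated libraries lay on either side of the controls (log2 fold change 0.03, SE 0.23), and the sign turned without treated library 2 (-0.24). A1cf, a cofactor of Apob mRNA editing, was at 0 in every library. The number called was 17 of 18 in the fit without treated library 1 and 9 of 16 without treated library 2, where 77.6% and 67.2% of all genes tested were called.

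Of 16 genes of lipoprotein remodelling and lipid efflux, 8 were tested, and 1 was called, in the lower direction. Among all genes tested, 2.85% were called lower. Npc1, which exports cholesterol from lysosomes, had 120 and 95.0 CPM in treated libraries 1 and 2 and 230 and 220 CPM in controls 1 and 2. The treated libraries were both below the controls, and the log2 fold change was -1.07 (SE 0.15; edgeR adjusted p = 0.0438). Without control 1 it was -1.06 (edgeR adjusted p = 0.141) and without control 2 -1.12 (edgeR adjusted p = 0.110), so the call was lost in both, as it was without normalization (edgeR adjusted p = 0.0655). Over all alternatives the adjusted p of Npc1 ran from 1.02e-170, without treated library 1, to 0.141. Abca1, which had the highest mean CPM over the 4 libraries but a lower treated mean than Lpl and Npc2, and which passes cholesterol to apolipoprotein A-I, had 210 and 158 CPM in the treated and 336 and 318 CPM in the control libraries. Its groups did not overlap, but it was not called by edgeR (log2 fold change -0.83, SE 0.18; edgeR adjusted p = 0.0749), while DESeq2 called it. Without treated library 1 or 2 Abca1 was called, at -1.04 and -0.64. Lcat, which esterifies cholesterol in high density lipoprotein and is named after its values were seen, had 1.98 and 10.6 CPM in treated libraries 1 and 2 and 1.29 and 0.946 CPM in controls 1 and 2. It was not called by edgeR (log2 fold change 2.48, SE 0.88; edgeR adjusted p = 0.151) but by DESeq2, and the log2 fold change was 0.83 without treated library 2 and 3.26 without treated library 1. The median of the list was 0.27. The number called was 8 of 9 in the fit without treated library 1 and 6 of 8 without treated library 2 (77.6% and 67.2% of all genes tested), 1, Lcat, without control 1 and 0 without control 2.

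Of 14 lipoprotein receptor and clearance genes, 11 were tested and 4 were called, with 2 higher and 2 lower. Among all genes tested, 4.63% were called, 1.78% as higher and 2.85% as lower. Vldlr, a receptor for triglyceride-rich particles, had 28.2 and 23.6 CPM in treated libraries 1 and 2 and 12.2 and 12.4 CPM in controls 1 and 2, and rose with a log2 fold change of 1.08 (SE 0.16; edgeR adjusted p = 0.0445). Both treated libraries of Vldlr were above both controls. Lrp8, the apolipoprotein E receptor 2, had 57.7 and 61.4 CPM in the treated and 108 and 111 CPM in the control libraries (log2 fold change -0.88, SE 0.11; edgeR adjusted p = 0.0350). Both treated libraries of Lrp8 were below both controls. The calls were lost without control 1 (log2 fold change 1.04, edgeR adjusted p = 0.337 for Vldlr, and -0.92, edgeR adjusted p = 0.214 for Lrp8) and without control 2 (1.07, edgeR adjusted p = 0.313, and -0.87, edgeR adjusted p = 0.259), while the fold changes stayed close to those of all 4 libraries, and the number called in the list was then 0. Without treated library 1 it was 11 of 12 in the fit and without treated library 2 it was 8 of 11, where 77.6% and 67.2% of all genes tested were called. The lowest adjusted p over the alternatives was 4.04e-54 for Vldlr and 8.76e-83 for Lrp8, each without a treated library. Without normalization Vldlr was not called (log2 fold change 0.97, edgeR adjusted p = 0.0889), while Lrp8 was. The median log2 fold change of the list was 0.28.

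Of 24 transcriptional regulators of apolipoprotein genes, 15 were tested and edgeR called 0, where it called 4.63% of all genes tested. An unadjusted p under 0.05 was found for 4. DESeq2, which called 15.2% of all genes tested, called 3 (Foxa1, Nr1h4 and Ppargc1a, named after their values were seen). All 3 lay below both controls in both treated libraries, with edgeR log2 fold changes of -0.74, -1.02 and -0.78 (SE 0.22, 0.24 and 0.24). These were -0.49, -0.81 and -0.51 without treated library 2 and -1.04, -1.28 and -1.12 without treated library 1. Hnf4a, also named after its values were seen, had 15 and 15 counts in the treated and 8 and 10 counts in the control libraries. It was not called (log2 fold change 0.97, SE 0.35; edgeR adjusted p = 0.155). Hnf4a passed the filter only through the treated libraries, where it was higher, so its values are no support for a difference. Of the 15 regulators tested, 4 lay above both controls in both treated libraries and 4 below. These positions held for 32.2% and 34.1% of all genes tested, so nothing is read from them. The median log2 fold change was -0.02. Srebf2, a sterol-sensing activator of cholesterol synthesis genes, had the highest mean CPM, with 220 and 182 CPM in treated libraries 1 and 2 and 207 and 209 CPM in controls 1 and 2. The treated libraries lay on either side of the controls (log2 fold change -0.05, SE 0.14), and the sign turned without treated library 2 (0.080). Onecut1, Cebpa and Prox1 had 0 counts in every library. The number called was 10 of 15 in the fit without treated library 1 and 11 of 17 without treated library 2, where 77.6% and 67.2% of all genes tested were called.

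Hepatocyte markers moved in the same contrast, and their part in the values of the 9 genes was not tested. Of 13 markers tested, 5 were called, all higher (Alb, Ttr, Fgb, Fgg and Rbp4), and the median log2 fold change was 1.96. Alb, the gene of serum albumin, had 3666 and 3547 CPM in treated libraries 1 and 2 and 904 and 947 CPM in controls 1 and 2. Its treated libraries were close to each other and well above the controls. The number of these markers called was 12 of 13 in the fit without treated library 1 and 12 of 14 without treated library 2 (77.6% and 67.2% of all genes tested), and 2 of 14, Fgb and Fgg, without either control. Alb was then not called, though its log2 fold change, 1.96 with all 4 libraries, was 1.91 without control 1 and 1.98 without control 2. Vil1 (enterocyte), Dcn (fibroblast and stellate) and Pecam1 (endothelial) were also called higher, 1 in each list of markers. The share called higher was 1.78% of all genes tested. The part of these markers in the values was not tested either. Lyve1, the only other endothelial marker tested, had 4.67 and 1.97 CPM in treated libraries 1 and 2 and 3.71 and 4.19 CPM in controls 1 and 2. Of the 4 macrophage and leukocyte markers tested, 0 were called. Csf1r and Lyz2 lay below both controls in both treated libraries, as did 34.1% of all genes tested. Without control 1 or without control 2, none of Vil1, Dcn and Pecam1 was called, leaving 0 in the fibroblast and stellate and the endothelial lists and 1, Lct, in the enterocyte list. Their log2 fold changes, 1.19, 1.16 and 2.03 with all 4 libraries, were then 1.09, 1.12 and 2.02 without control 1 and 1.27, 1.15 and 2.01 without control 2. Without normalization Vil1 was not called either (log2 fold change 1.09).

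**Figure D3:**
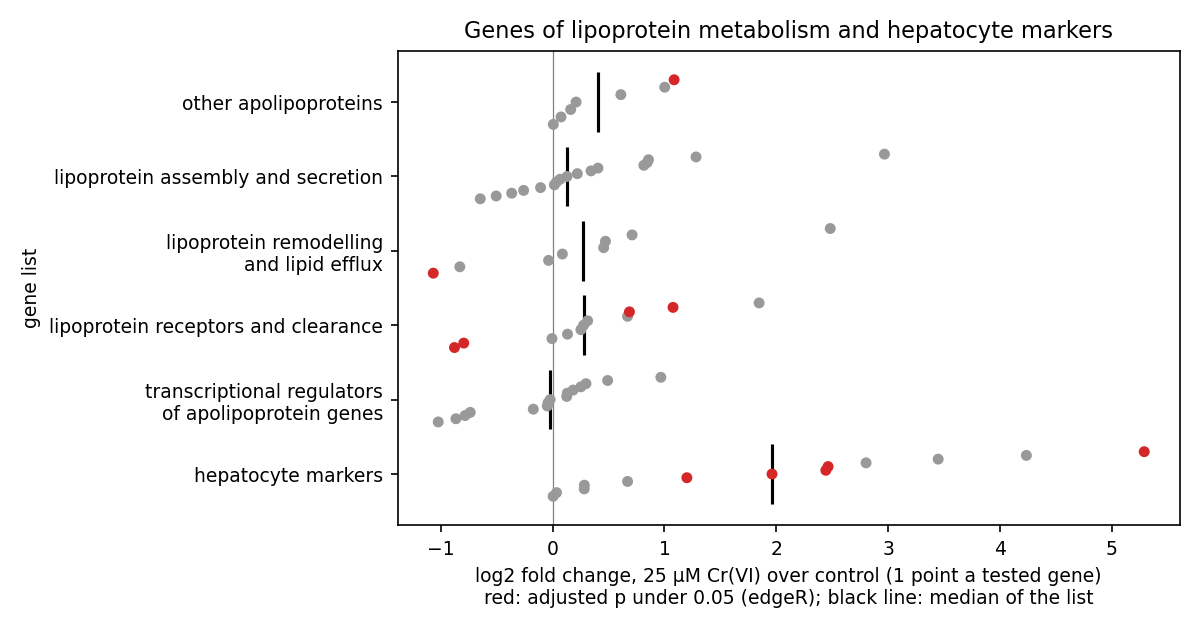
Log2 fold change of each tested gene in 5 lists of lipoprotein metabolism and in the hepatocyte markers, with genes called by edgeR in red and the median of each list as a black line (Apoc1, at 0 in both controls, is in the median but not drawn). Hepatocyte markers have a median of 1.96, and the regulators one of -0.02.

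The nearest tested genes on either side of each member were set beside it. Apob lies 2930233 bp from Atad2b and 191256 bp from Ldah, with log2 fold changes of 0.15 and 0.26. Apoa1, Apoc3 and Apoa4 lie in a cluster on chromosome 9 between Sik3 (-0.21) and Zpr1 (0.42). Apoa2 lies beside Tomm40l (0.13), Apoe between Apoc1 and Tomm40 (-0.29), Apom between D17H6S53E (0.02) and Bag6 (0.57), and Mttp between Dapp1 (-0.46) and Trmt10a (-0.14). None of these neighbours was called by edgeR on all 4 libraries. Several of these values moved with the treated library left out. Without treated library 1, Ldah was at 0.0098, Tomm40 at -0.067, Bag6 at 0.84 and Dapp1 at -0.99. Without treated library 2 they were at 0.47, -0.54, 0.25 and -0.080, while Trmt10a stayed at -0.13 and -0.14. Apoh lies between Prkca and Cep112 (-0.60, or -0.94 without treated library 1 and -0.32 without treated library 2). Prkca, a protein kinase C gene, was called. It fell by 1.44 on the log2 scale (SE 0.14; edgeR adjusted p = 0.0312) and was called with each library left out. Of the 14 neighbours, 10 were called without treated library 1, 9 of the 13 in the fit without treated library 2 (77.6% and 67.2% of all genes tested), and 1, Prkca, without either control.

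The peak lists hold regions more open in treated cells than in their control, as the authors called them from 1 library a condition, so they have no replicate check. No peak of the 25 µM list (2945 peaks) had its centre within 50000 bp of a start site of any of the 9 genes, where 17.2% of 23281 genes had one. The nearest was 74024 bp from Apoa1, and for Apob it was 518695 bp. In the 0.5 µM list (860 peaks), 3 of the 9 genes had a peak within 50000 bp, where 5.13% of all genes did. These were Apoa1 (40104 bp), Apoa4 (41767 bp) and Apoc3 (46773 bp), neighbours on chromosome 9 with 2 peaks between them. Apoa1 had only the first of these within 50000 bp, Apoa4 only the second and Apoc3 both. The 3 genes are therefore not independent of each other. The second peak lies nearer to Apoa5, at 13978 bp, an apolipoprotein gene that is not among the 9. For Apob the nearest peak of this list was 1222682 bp away. Of the 85 genes in the 5 lists, 15 had a 25 µM peak within 50000 bp and 7 a 0.5 µM peak.

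The first peak beside the chromosome 9 cluster, from 46188216 to 46188836, had a score of 86.5 and lies in an intron of Sik3. The second, from 46282262 to 46282960, had a score of 75.4 and covers the end of Zpr1 and bases before Bud13. The central 200 bases of the Sik3 peak are shown because the peak is nearest to Apoa1 (GRCm38.p6, plus strand, chr9:46188426-46188625), with a match to the AP-1 motif TGANTCA in capitals.
Peak in Sik3: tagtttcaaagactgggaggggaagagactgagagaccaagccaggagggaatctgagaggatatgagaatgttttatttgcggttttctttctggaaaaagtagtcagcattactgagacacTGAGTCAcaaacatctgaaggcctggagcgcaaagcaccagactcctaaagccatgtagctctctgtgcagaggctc
Of the 859 peaks of this list that were at least 200 bases wide, 20.3% held that motif in their central 200 bases.

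**Figure D4:**
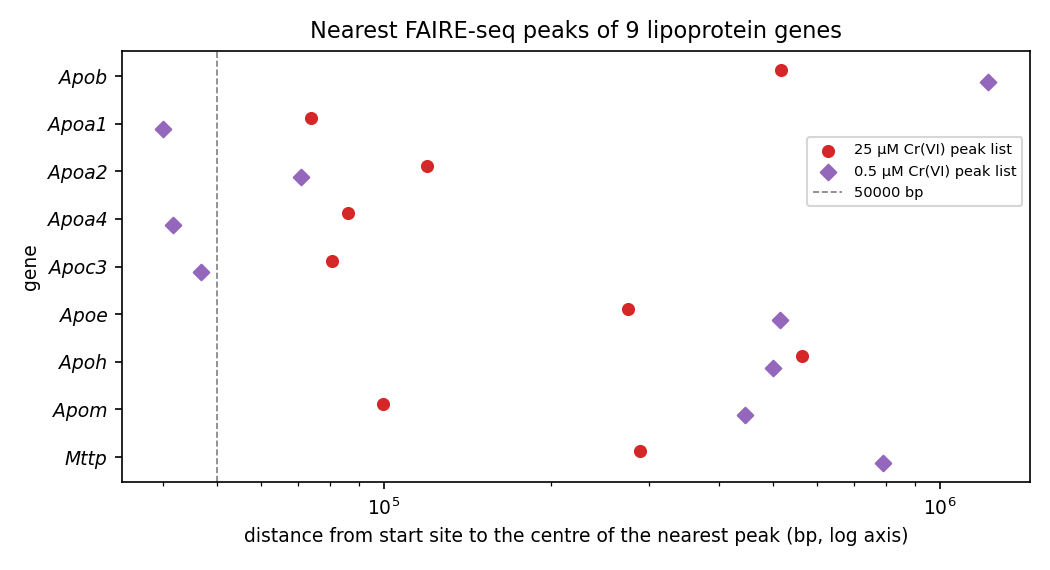
Distance (bp, log axis) from a start site of each gene to the centre of the nearest FAIRE-seq peak in the 25 µM (circles) and 0.5 µM (diamonds) lists, with a dashed line at 50000 bp. Apoa1, Apoa4 and Apoc3 lie left of the line for the 0.5 µM list, and no gene does for the 25 µM list.

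Motifs were searched on both strands in 11 promoter entries of RefSeq (GRCm38.p6, from 250 bases before to 50 after a start) for 8 of the 9 genes, with none for Apoc3. The TATA box TATAAA was found for Apob, Apoa2 and Apoe, and in 13.6% of all 32851 promoter entries. The C/EBP motif TTGCNNAA was found for Apob and Apoa2, and in 10.8% of all entries. The FOXA motif TGTTTAC was found for Apoa2, Apoe and Apoh, and in 3.65% of all entries. The nuclear receptor motif AGGTCA was found for Apoa2 and Apoh (16.3% of all entries), and the HNF1 motif GTTAAT for Apoe (7.10%). The HNF4 motif CAAAGTCCA (0.475%), the sterol element TCACNCCAC (1.24%) and the AP-1 motif TGANTCA (7.81%) were not found in these windows. At Apob the TATA box lay 60 to 55 bases before the curated start. A match is a description of letters and not of a bound site.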

How the data were processed

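RNA-seq was analysed from the deposited table of read counts. The authors had aligned the reads to mm10 with TopHat. The counting tool, its annotation and its use of strand are not given in the sources used here. FAIRE-seq was analysed from the peak lists, whose score the authors obtained with MACS after alignment with BWA. The peak lists carry no read counts. Members and lists were chosen with earlier results of these data known.

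A filter on low counts (filterByExpr) kept 13619 of 23403 genes for the quasi-likelihood test of edgeR (TMM, two-sided, Benjamini-Hochberg, threshold 0.05, group only). The steps were tested on simulated data. The genes named are the 9 members, the called genes of 5 lists (at most 6 each, largest changes first) and each list's gene with the highest mean CPM, the nearest tested neighbours, and the 5 genes most like Apob. Some genes that this rule names are not reported here. Alternatives were DESeq2, a replicate block, no normalization, upper-quartile factors, no filter, an adjusted p of 0.1, each library left out, other windows, any base of a peak, scores of at least 100 and other lengths. Versions were R 4.3.3, edgeR 4.0.16, DESeq2 1.42.0, Python 3.11.15, pandas 2.3.3, numpy 2.4.6 and matplotlib 3.10.9.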

Additional observations from a re-analysis of the deposited data

How the results depend on the processing

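The numbers of genes called by edgeR on all 4 libraries were 631 in all, 243 higher and 388 lower. Leaving out 1 library gave 287 to 10995 in all, 104 to 5407 higher and 183 to 5588 lower. DESeq2 called 2073 (1057 higher, 1016 lower), which moved the share of higher calls from 38.5% to 51.0%. An adjusted p under 0.1 gave 2212 (1054 higher, 1158 lower), and no normalization left 141 higher and moved the median of all genes from -0.0047 to -0.11 (log2). The cause of these differences was not tested.

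Of the 9 members, 1 was called, against 3 by DESeq2 and 4 at an adjusted p under 0.1. Of all 13619 genes tested, 631, 2073 and 2212 were called in the same settings, so nothing is read from the rise. Their median log2 fold change ran from 1.27 to 2.32 with 1 library left out, but over different genes. Without treated library 2 it covers 4 members. Without treated library 1 or without either control it covers 5, with Apom added. The 2.32, without treated library 1, is the value of Apom itself. Apom passed the filter only through treated library 2, where it was highest. Of the other apolipoproteins DESeq2 called 2, 2 were called at 0.1, and 0 to 4 with 1 library left out. The same figures were 1, 1 and 0 to 17 for assembly and secretion, and 3, 2 and 0 to 8 for remodelling and efflux, where no normalization gave 0. For receptors and clearance, no normalization gave 1 and leaving out 1 library 0 to 11. For the regulators they were 3, 1 and 0 to 11. The cause was not tested.

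Numbers 1 and 2 in the labels share only a number (correlation of same-numbered deviations 0.0909). With the replicate as a block, 2969 genes were called (1397 higher, 1572 lower), or 21.8% of all genes tested. These included 3 members, 2 other apolipoproteins, 2 assembly, 3 remodelling, 6 receptor and clearance and 3 regulator genes.

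Members with a 0.5 µM peak numbered 3 within 50000 bp, and 0 within 1000 bp, 0 within 10000 bp and 0 at a score of at least 100. For 25 µM all alternatives gave 0. Some genes that were not called changed sign. Without normalization P4hb was at -0.096 and D17H6S53E at -0.077, and without the filter D17H6S53E was at -0.0027. With 1 library left out P4hb ran from -0.24 to 0.27, Srebf2 from -0.18 to 0.080, Atad2b from -0.13 to 0.39, Tomm40l from -0.015 to 0.26 and D17H6S53E from -0.17 to 0.19. The cause was not tested. With 2 libraries a group, Apoa1, Apoh and Apom did not pass the filter with all 4 libraries.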
